A study of Mus musculus with 6 samples.

Results

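The embryonic globin genes Hbb-y, Hbb-bh1 and Hba-x and the heme synthesis genes Alas1, Alas2, Alad, Urod, Cpox and Fech were followed in mouse bone marrow on Affymetrix arrays. Members were the probe sets to which the platform annotation gives exactly 1 gene symbol, that symbol being one of these 9, and there were 21 of them among 45037 probe sets in all. They stand for 9 of 18193 genes, and every member is described whatever its signal. The genes were chosen on the difference between the groups that these same arrays had shown, so that difference is given for them as a description, with no test, and supports nothing further. A count of members past the threshold of the whole-table fit is set beside the share of the whole table that passed, and nothing is read from it.

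The arrays came from 3 samples of mice transplanted with ASXL1-MT cells, labelled as having a disease like myelodysplastic syndrome, and from 3 samples of mock-transplanted mice, labelled normal control. The titles of both groups begin with BMT, and both were depleted of cells carrying CD3e (T cells), B220 (B cells) or TER-119 (late red cell precursors and red cells), per the series text. The source label repeats that depletion for the mock samples alone. Strain, age, time after transplant, the construct that carried ASXL1-MT and what the mock cells carried are not given in the sources used here. Whether a sample was 1 mouse or a pool is not given either, so errors and p-values cover just how these 6 samples vary, and that variation may be technical.

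Every value is a log value, taken as log2, that the deposit had centred for each probe set on its median over the 6 arrays, so that a value above 0 is brighter than that median. A change takes the mean of the mock arrays from that of the ASXL1-MT arrays and is given with its standard error (SE). A fold holds only if the log base is 2. Levels of different probe sets cannot be compared, since centring removed them. The rounding of the deposited numbers kept part of the level: logs of 8 and above in single precision lie on a coarser step than smaller ones. A probe set is called bright where its 3 highest arrays lay on the step that goes with a signal of 256 or more, which held for 33.6% of all probe sets. Some values of a lower signal lay on that step too, so the label does not prove the level. How often the label is wrong was not measured. Finer steps give an upper bound on the signal, and both readings rest on base 2 and single precision.

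Globins are the protein chains of hemoglobin, the oxygen carrier of red cells. In the mouse, Hbb-y and Hbb-bh1 (beta-like) and Hba-x (alpha-like, the zeta chain) are made mainly by the first red cells of the embryonic yolk sac, and adult marrow makes adult alpha and beta chains instead. Each chain holds a heme, which is built in steps that start and end in the mitochondrion: ALAS joins glycine and succinyl-CoA, ALAD, UROS and UROD work in the cytosol, and CPOX, PPOX and FECH finish the ring and insert iron. Alas1 encodes the form of the first enzyme found in all tissues and Alas2 the red cell form, whose mutation causes X-linked sideroblastic anemia.

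The cells are labelled myeloid, and 14 of 15 neutrophil marker probe sets were bright, as were 8 of 41 of erythroid markers. Brightness depends on the probes too, so it ranks no cell type. Of all probe sets in the deposit, 8.1% passed an adjusted p of 0.05 in limma, 4.73% as higher and 3.37% as lower in ASXL1-MT, and 11.4% of genes did, 6.63% as higher. Groups did not overlap in 35.4% of probe sets, 21.7% as higher in ASXL1-MT. The median change of all genes was 0.11, and other scalings moved it to 0.03 (equal array medians), 0.02 (quantile) or 0.01 (cyclic loess).

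Hbb-y, the epsilon-like embryonic beta chain, had the highest change of all 45037 probe sets. Among the 9 genes 2 passed the threshold, Hbb-y and Alas2, both as higher, beside 6.63% of all genes. Among the 21 probe sets 4 passed as higher and 0 as lower, beside 4.73% and 3.37% (10 of 21 had an unadjusted p under 0.05 in limma, in either direction, beside 26.3% of all probe sets). The groups did not overlap in 13 of 21 probe sets, 12 of them higher in ASXL1-MT, beside 35.4% and 21.7% of the table, and in 4 of 9 genes, all higher, beside 37.9% and 23.5% of all genes. The plot of the probe sets by array shows these values.

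**Figure D1:**
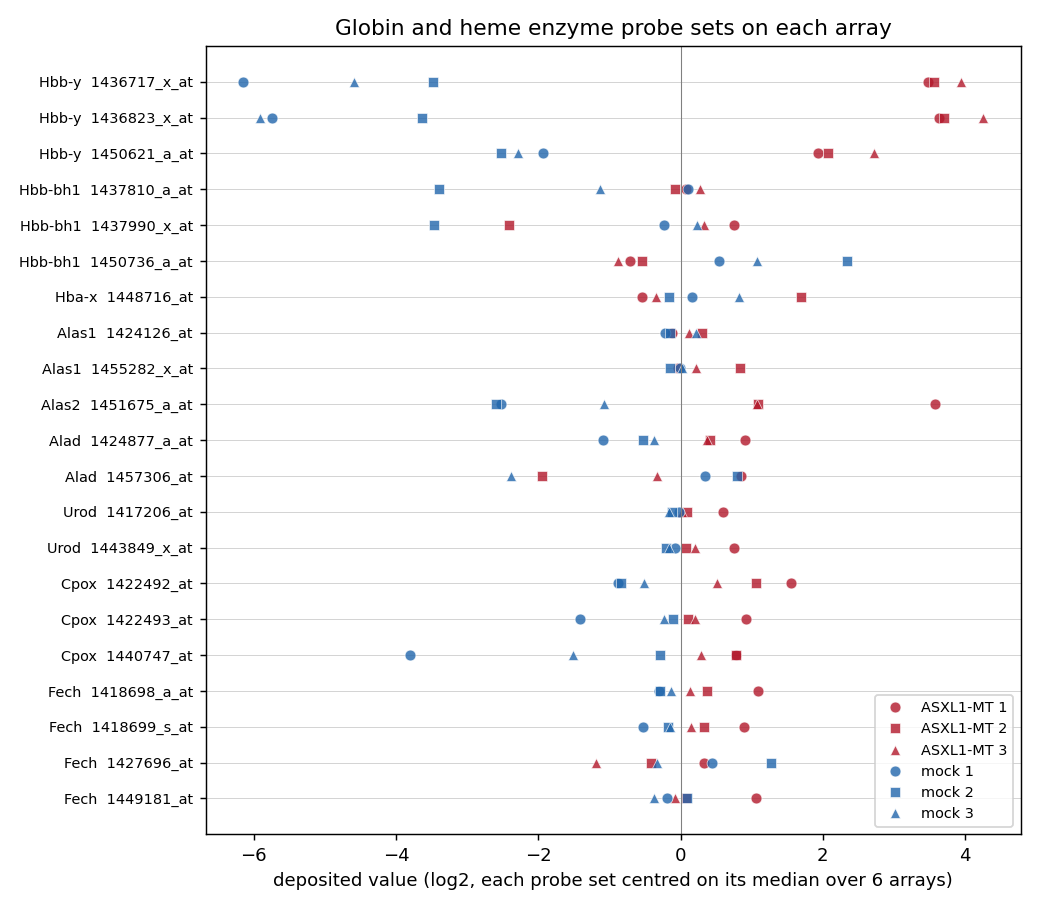
Deposited values of the 21 probe sets of the embryonic globins and heme enzymes, on the log2 scale and centred on the median of each probe set. Red marks are ASXL1-MT replicates, blue marks are mock replicates, and the 3 Hbb-y probe sets at the top have all ASXL1-MT arrays at 1.93 or higher and all mock arrays at -1.93 or lower.

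The 3 Hbb-y probe sets ordered the arrays in the same way between groups. On 1436823_x_at the ASXL1-MT arrays 1 to 3 read 3.64, 3.70 and 4.26 and the mock arrays 1 to 3 read -5.74, -3.64 and -5.92, a change of 8.97 (SE 0.67), which ranked 1 of the table. On 1436717_x_at they read 3.48, 3.57 and 3.94 against -6.16, -3.48 and -4.59, a change of 8.41 (SE 0.70), which ranked 2. All ASXL1-MT arrays lay close together on both, and the mock arrays were spread over more than 2 log2 units. On 1450621_a_at they read 1.93, 2.07 and 2.72 against -1.93, -2.52 and -2.29, a change of 4.49 (SE 0.29), which ranked 49. As a gene, the mean of the 3, Hbb-y was 3.02, 3.12 and 3.64 against -4.61, -3.21 and -4.27, with a change of 7.29 (SE 0.42, a 156-fold difference). ASXL1-MT replicate 3 was the highest array on each of the 3 probe sets, and the groups were far from overlapping.

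The size of the Hbb-y change depends on dim mock signals. On the 2 probe sets with the suffix _x_at, mock replicate 2, the brightest mock array, had a signal under 16, and mock replicates 1 and 3 were under 2.51 and 7.45 on 1436717_x_at and under 3.72 and 3.30 on 1436823_x_at. On 1450621_a_at the 3 mock arrays were under 16, 10.7 and 12.5. All mock arrays were bounded at 16 or less on 4956 probe sets (11.0%) of the table, and 183 of those (3.69%) passed as higher in ASXL1-MT. On the ASXL1-MT side 1436823_x_at was called bright, with bounds of 2488, 2599 and 3817, and 1450621_a_at was bounded at 234, 257 and 404. Hbb-y was thus dim on every mock array, and its fold divides by a signal near the bottom of the scale. The suffix _x_at marks probe sets whose probes can match other transcripts, and the part of related globins in these signals was not tested.

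The other embryonic chains did not share this pattern. Hbb-bh1, the second embryonic beta-like chain, has 3 probe sets that went different ways. On 1437810_a_at the ASXL1-MT arrays read 0.08, -0.08 and 0.27 and the mock arrays 0.11, -3.39 and -1.13, so the groups overlapped and mock replicate 2 stood low. On 1437990_x_at the values were 0.75, -2.41 and 0.33 against -0.23, -3.46 and 0.23, again with overlap, and replicate 2 was the lowest array of each group. On 1450736_a_at, -0.71, -0.55 and -0.88 stood against 0.55, 2.34 and 1.07, a change of -2.03 (SE 0.49) in the opposite direction without overlap. There the ASXL1-MT signals were bounded at 1.78, 2 and 1.59 and the highest mock signal at 14.8, so both groups were dim. As a gene Hbb-bh1 had a change of 0.08 (SE 0.55), which became -0.46 without mock replicate 2 and 0.41 without ASXL1-MT replicate 2.

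Hba-x, the embryonic alpha-like chain, has 1 probe set, 1448716_at. The ASXL1-MT arrays read -0.54, 1.69 and -0.35 beside 0.16, -0.16 and 0.82 for the mock arrays, a change of -0.01 (SE 0.67). ASXL1-MT replicate 2 was the highest array and its 2 fellows were the lowest, so the groups overlapped throughout. All 6 signals were bounded at 51.6 or less.

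**Figure D2:**
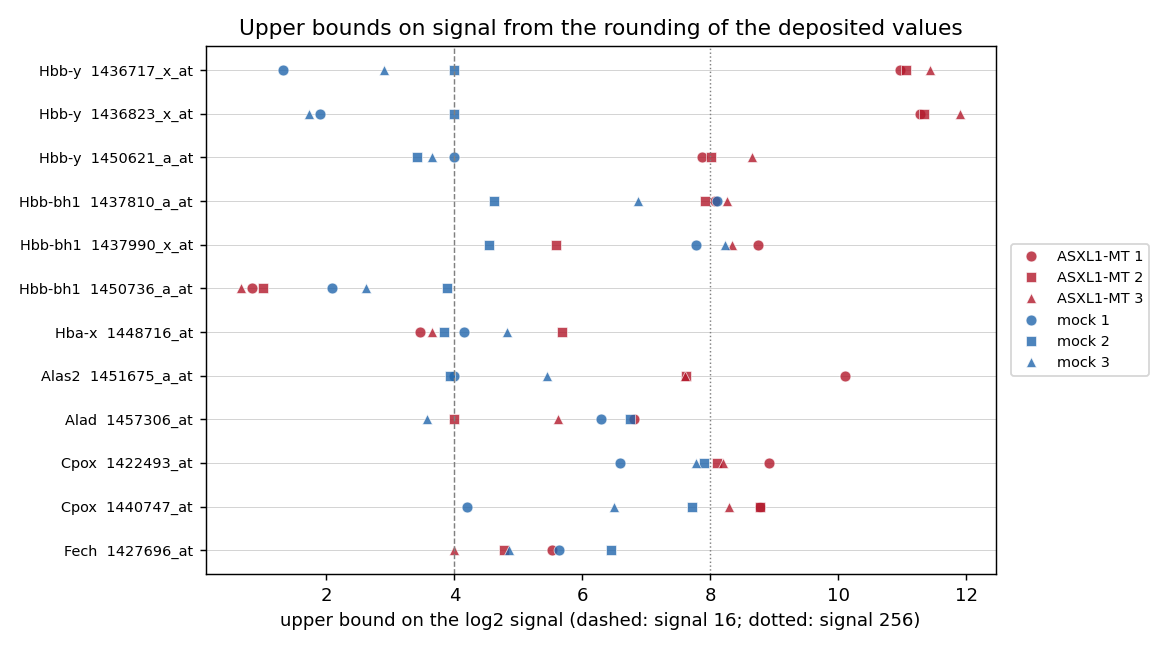
Upper bounds on the log2 signal of each array for the 12 member probe sets that have one, with lines at signals of 16 and 256. Marks are arrays as in the key, and each mark is a limit and not a level; Hbb-y mock arrays lie at or left of 16 on all 3 probe sets, as do mock replicates 1 and 2 for Alas2.

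The promoter sequences of Hbb-y and Hba-x are shown because their changes, 7.29 and -0.01, were far apart, although both are embryonic chains. Hba-x rests on 1 probe set with signals bounded at 51.6 or less, so its groups were not shown to be equal. They are the 250 bases before the RefSeq start (build GRCm38.p6), 5′ to 3′ on the gene's strand. Capitals mark GATAA (the core of GATA factor sites), CACCC (the core of KLF sites), CCAAT and TATAAA on either strand. Hbb-y lies at chr7:103853208-103853457 on the minus strand and Hba-x at chr11:32276350-32276599 on the plus strand.
Hbb-y: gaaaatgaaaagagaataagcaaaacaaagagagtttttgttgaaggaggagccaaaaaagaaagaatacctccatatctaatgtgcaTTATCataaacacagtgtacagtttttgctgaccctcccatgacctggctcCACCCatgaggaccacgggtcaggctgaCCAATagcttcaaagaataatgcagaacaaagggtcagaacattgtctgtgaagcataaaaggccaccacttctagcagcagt
Hba-x: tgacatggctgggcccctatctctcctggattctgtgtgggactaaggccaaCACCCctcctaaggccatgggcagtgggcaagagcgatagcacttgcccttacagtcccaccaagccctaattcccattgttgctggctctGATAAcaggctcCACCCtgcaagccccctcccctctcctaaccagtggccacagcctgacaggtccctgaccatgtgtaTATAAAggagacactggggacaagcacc
Hbb-y held 1 GATAA, 1 CACCC and 1 CCAAT, and Hba-x held 1 GATAA, 2 CACCC and 1 TATAAA. The last motif searched, TGANTCA (the core of NF-E2 and AP-1 sites), had 0 matches in both. Of 32817 windows of this length, GATAA was in 22.6%, CACCC in 52.0%, CCAAT in 33.8%, TATAAA in 12.4% and TGANTCA in 6.75%. The matches are a description of these letters, and no binding was measured.

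In heme synthesis all 6 enzyme genes had a change above 0, from 0.27 to 3.98, with a median of 0.50 beside 0.11 for all genes. Of their 14 probe sets 12 were above 0, 9 were higher in ASXL1-MT without overlap beside 21.7% of the table, and 1 passed, 1422492_at of Cpox, beside 4.73%. Of the 9 bright ones all were above 0, with a median of 0.51, and 6 were higher without overlap, beside 36.3% of all bright probe sets. A fit to bright probe sets alone called 4 of these 9, all as higher, beside 47.3% of all bright probe sets in either direction. The 2 probe sets below 0, 1457306_at of Alad and 1427696_at of Fech, were both dim. Without ASXL1-MT replicate 1 the median over the 6 genes was 0.32 and 5 were above 0.

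Alas1 and Alas2 encode the same step and differed in how far they moved. Alas2 (1451675_a_at) read 3.58, 1.09 and 1.08 on the ASXL1-MT arrays against -2.52, -2.59 and -1.08. The groups did not overlap, and ASXL1-MT replicate 1 stood 2.50 above the mean of replicates 2 and 3. Its change was 3.98 (SE 0.84, 15.8-fold), and 3.15 without that array. The gene passed the threshold among genes but not as a probe set, and leaving out any 1 of the 6 arrays ended the call. Mock signals were bounded at 16, 15.3 and 43.6 and ASXL1-MT signals at 1101, 196 and 194, so Alas2 was dim in mock and the fold has a low base.

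Alas1, on 2 bright probe sets, was -0.07, 0.56 and 0.17 against -0.12, -0.15 and 0.12 as a gene. The groups overlapped, ASXL1-MT replicate 2 was highest, and the change was 0.27 (SE 0.21). Its probe sets gave 0.15 (SE 0.20) and 0.39 (SE 0.26). Alas1 was the single enzyme gene that was not highest on ASXL1-MT replicate 1.

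The promoters of Alas2 and Cpox, whose enzymes had the 2 highest changes of the pathway, are shown in the same way and with the same capitals. Alas2 lies at chrX:150547167-150547416 and Cpox at chr16:58669958-58670207, both on the plus strand.
Alas2: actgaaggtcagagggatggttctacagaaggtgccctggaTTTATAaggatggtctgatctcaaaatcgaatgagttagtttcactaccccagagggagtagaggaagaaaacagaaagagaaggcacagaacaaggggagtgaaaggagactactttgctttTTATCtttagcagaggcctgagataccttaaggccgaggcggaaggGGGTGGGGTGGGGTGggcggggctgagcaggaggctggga
Cpox: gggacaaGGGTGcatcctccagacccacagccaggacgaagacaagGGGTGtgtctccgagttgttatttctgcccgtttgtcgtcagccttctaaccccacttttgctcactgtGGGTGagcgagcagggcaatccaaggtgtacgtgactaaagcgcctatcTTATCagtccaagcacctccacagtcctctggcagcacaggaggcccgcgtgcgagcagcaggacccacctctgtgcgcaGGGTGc
Alas2 held 1 GATAA, 3 CACCC and 1 TATAAA and Cpox held 1 GATAA and 4 CACCC. In both, the GATAA match lay on the opposite strand, 86 to 82 bases before the start. The windows of Alas1, Alad and Urod held 0 GATAA. No motif match in these windows overlapped one of another motif, and 7 of the 9 genes had a window in the RefSeq table.

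Alad, which joins 2 ALA molecules into porphobilinogen, has a bright and a dim probe set. On the bright one, 1424877_a_at, the arrays read 0.90, 0.41 and 0.37 against -1.10, -0.53 and -0.37, a change of 1.23 (SE 0.27) without overlap. On the dim one, 1457306_at, they read 0.85, -1.95 and -0.34 against 0.34, 0.79 and -2.38, with full overlap and a change of -0.07 (SE 1.12). Averaging them gave the gene a change of 0.58 (SE 0.57).

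Urod, which trims uroporphyrinogen to coproporphyrinogen, was 0.67, 0.08 and 0.12 against -0.05, -0.16 and -0.17 over 2 bright probe sets. The groups did not overlap but came close, and the change was 0.42 (SE 0.21), or 0.23 without ASXL1-MT replicate 1. That array was the highest on both Urod probe sets.

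Cpox, the mitochondrial coproporphyrinogen oxidase, was higher without overlap on all 3 of its probe sets. On the bright 1422492_at the arrays read 1.56, 1.06 and 0.51 against -0.89, -0.84 and -0.51, a change of 1.79 (SE 0.31, 3.46-fold). On 1422493_at the change was 0.99 (SE 0.44) and on 1440747_at 2.48 (SE 0.91), and mock replicate 1 was the lowest array of both, at -1.41 and -3.81. As a gene Cpox was 1.09, 0.65 and 0.34 against -2.03, -0.41 and -0.75, with a change of 1.75 (SE 0.48). It did not pass the threshold as a gene, and its change was 1.55 without ASXL1-MT replicate 1 and 1.27 at the lowest with an array left out.

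Fech, ferrochelatase, which inserts the iron, has 4 probe sets. On the 2 bright ones 1418698_a_at and 1418699_s_at the groups did not overlap, with 1.09, 0.37 and 0.14 against -0.30, -0.28 and -0.14 on the former and changes of 0.77 (SE 0.28) and 0.74 (SE 0.26). On the bright 1449181_at the change was 0.51 (SE 0.35), with overlap, and ASXL1-MT replicate 1 stood apart at 1.06. The dim 1427696_at, with every signal bounded at 87.6 or less, went the other way at -0.88 (SE 0.57). The mean over the 4 was 0.29 (SE 0.33), and it was -0.02 without ASXL1-MT replicate 1 and 0.68 or more on bright probe sets alone or with the probe set of smallest spread.

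**Figure D3:**
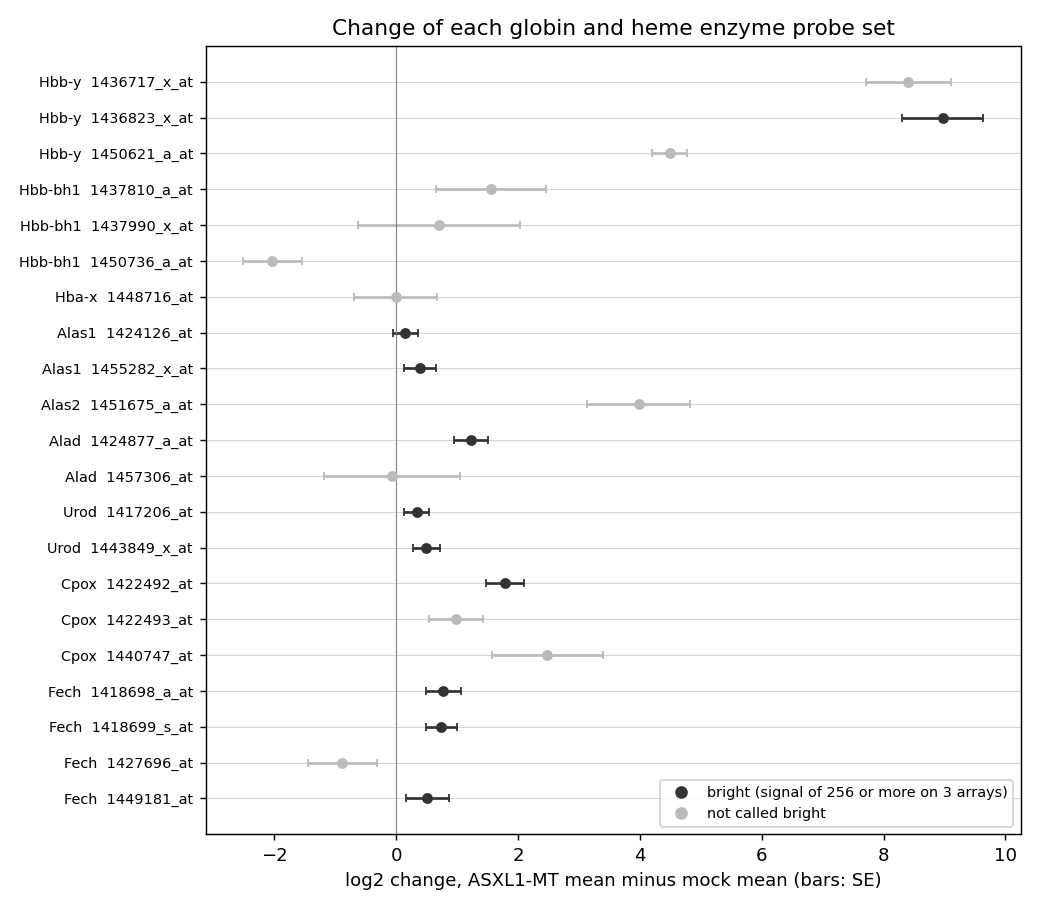
Change of each of the 21 probe sets on the log2 scale, ASXL1-MT mean minus mock mean, with SE bars. Black marks are bright probe sets, grey marks are not, and the 9 bright probe sets of heme enzymes all lie right of 0 while the 3 of Hbb-bh1 lie on both sides.

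Uros and Ppox, enzymes of other steps, were not members and were tested over all genes, although this list too was made with earlier results known. Uros was 0.23, 0.24 and 0.19 against -0.42, -0.14 and -0.27, without overlap, a change of 0.50 (SE 0.14, adjusted p = 0.0806 by limma over all genes). On each of its 2 probe sets the groups did overlap, with changes of 0.67 (SE 0.29) and 0.32 (SE 0.29). Ppox was 0.35, -0.04 and 0.13 against -0.01, -0.49 and -0.07, with overlap and a change of 0.34 (SE 0.20, adjusted p = 0.335 by limma). Neither passed, and at an unadjusted p under 0.05 there was 1, Uros. Taking the least variable of its 3 probe sets turned the change of Ppox to -0.12.

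Red cell markers are given beside the heme enzymes, since both were highest on the same array. The mean of the 6 enzyme genes was 1.17, 0.28 and 0.24 on the ASXL1-MT arrays and -0.88, -0.49 and -0.58 on the mock arrays. Without Alas2 it was 0.68, 0.12 and 0.08 against -0.55, -0.07 and -0.48. The mean of 22 measured erythroid markers, of 27 listed, was 1.46, 0.47 and 0.09 against -1.11, -0.45 and -0.43. ASXL1-MT replicate 1 was the highest array for 5 of 6 enzyme genes and 20 of 22 erythroid markers, beside 16.5% of all genes. Mock replicate 1 was the lowest for 1 of 6 enzyme genes and 13 of 22 markers, beside 22% of all genes. Hbb-y differed from this order in the ASXL1-MT group, where replicate 1 was the lowest, at 3.02 beside 3.12 and 3.64. Mock replicate 1 was the lowest array for Hbb-y as a gene, at -4.61, and on 1436717_x_at alone of its probe sets. In depleted marrow measured as a whole, more red cell precursors and more RNA per cell cannot be told apart. The part of red cell precursors in the enzyme values was not tested.

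Of the 22 erythroid markers 3 passed as higher and 0 as lower in limma, beside 6.63% and 4.75% of all genes, and 13 were higher and 0 lower at an unadjusted p under 0.05, beside 18.1% and 10.9%. Add2, a subunit of the red cell skeleton protein adducin, rose by a log2 change of 1.78 (SE 0.35, adjusted p = 0.0365 by limma), and Tspan33 (2.13, SE 0.43) and Gypc, the membrane protein glycophorin C (0.76, SE 0.16), rose too. Slc4a1, the red cell anion exchanger, had a change of 2.64, Rhag 2.10, Hemgn 2.08 and Epor, the erythropoietin receptor, 0.65, and none of these 4 passed. The 3 probe sets of Slc4a1 disagreed, with changes of 3.81, 4.60 and -0.485. Of the 22 markers 20 were above 0, while Sptb (-0.49) and Pklr (-0.36) were below it. Car1 had a change of 0.06 and Ank1 of 0.16. The median change was 1.73, and it was 1.22 without ASXL1-MT replicate 1 and 1.19 without mock replicate 1. Of the 41 probe sets of these markers 8 were bright, beside 33.6% of all probe sets, so many of these changes may have a low base. Leaving out any 1 array left 0 erythroid calls, and Gypc also lost its call under quantile, loess and equal-median scaling. The 1 probe set of Gypc did not pass over all probe sets (adjusted p = 0.0608 by limma), nor did any of Add2. With the least variable probe set Tspan33 had a change of 1.19 and did not pass.

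**Figure D4:**
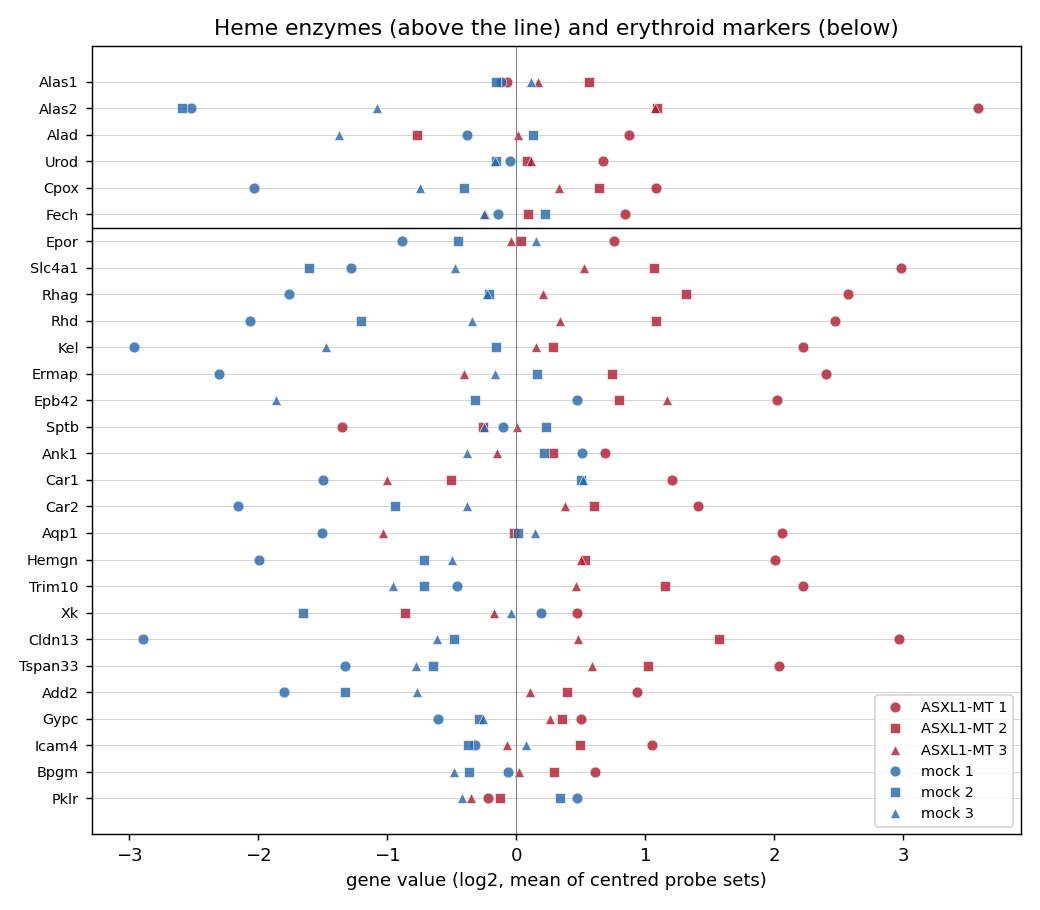
Gene values on each array for the 6 heme synthesis genes, above the line, and 22 erythroid markers, below it, as centred log2 means of their probe sets. ASXL1-MT replicate 1 (red circles) is the rightmost mark for 5 of 6 enzymes and 20 of 22 markers.

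Adult globins were covered poorly by probe sets with 1 symbol. Of 3 genes measured 0 passed in limma, beside 6.63% of all genes as higher and 4.75% as lower. At an unadjusted p under 0.05 in limma there was 1 higher, beside 18.1% of all genes. Hbb-b2, an adult beta chain, was 1.35, 1.33 and 0.38 against -2.05, -0.33 and -2.21, a change of 2.55 (SE 0.60, adjusted p = 0.0541 by limma) without overlap. It passed without mock replicate 2, at 3.15 (adjusted p = 0.0398 by limma), and with an intensity trend or the probe set of smallest spread. Its 2 probe sets, 1427865_at (1.54, SE 0.39) and 1427866_x_at (3.56, SE 0.99), were not bright. Neither passed over all probe sets (adjusted p = 0.0749 and 0.0934 by limma). Mock signals on 1427866_x_at were bounded at 26.7, 147 and 16, so that change has a low base. Hba-a1 (0.36, SE 0.86) and Hba-a2 (-0.26, SE 0.27) overlapped between groups, each on 1 probe set that was not bright. Bright probe sets that carry both of these symbols had changes of 5.60, 3.75 and 4.23, and are described with the flagged results.

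Supply of iron and precursors to the mitochondrion showed 2 genes higher of 19 and 0 lower in limma, beside 6.63% and 4.75% of all genes, with 6 and 3 at an unadjusted p under 0.05, beside 18.1% and 10.9%. Slc25a40, a mitochondrial carrier, was 0.77, 0.59 and 0.62 against -0.94, -0.92 and -0.59, a rise of 1.48 (SE 0.16, adjusted p = 0.0125 by limma). The call ended when ASXL1-MT replicate 3 was left out (adjusted p = 0.0586 by limma) and held in the 5 other such fits. Clpx, a chaperone that activates ALAS, rose by 0.92 (SE 0.20, adjusted p = 0.0441 by limma), a call that ended under quantile, loess and equal-median scaling and without any 1 array. Its bright probe set had a change of 0.41 (SE 0.15) and the other one 1.42 (SE 0.35), and neither passed over all probe sets. The iron importer of red cell mitochondria, Slc25a37, had a change of -0.18 (SE 0.17), the glycine carrier Slc25a38 -0.13 and Abcb10 -0.35, and all 3 overlapped. The list's median was 0.11, as for all genes.

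Iron handling outside the mitochondrion showed 0 of 13 genes higher and 2 lower, beside 6.63% and 4.75% of all genes. At an unadjusted p under 0.05 in limma these were 1 and 4, beside 18.1% and 10.9%. Slc40a1, the iron exporter ferroportin, was -0.94, -0.45 and -0.94 against 0.87, 0.59 and 0.57, and fell by 1.45 (SE 0.20, adjusted p = 0.0176 by limma). Fbxl5, which marks iron regulatory proteins for breakdown, was -1.15, -0.50 and -0.63 against 0.50, 0.60 and 0.83, and fell by 1.40 (SE 0.22, adjusted p = 0.0228 by limma). When arrays were left out singly, Slc40a1 still passed without ASXL1-MT replicate 2 alone and Fbxl5 without ASXL1-MT replicate 1 alone. Tfrc, the transferrin receptor, was 0.98, 0.11 and 0.11 against -0.45, 0.03 and -0.24, a change of 0.62 (SE 0.30) that did not pass, with ASXL1-MT replicate 1 highest again. The list's median was 0.09.

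Among 16 genes of heme breakdown, export and sensing, 1 was higher and 2 were lower, beside 6.63% and 4.75% of all genes. At an unadjusted p under 0.05 in limma these were 2 and 5, beside 18.1% and 10.9%, and the median change was -0.36. Hmox2, the constitutive heme oxygenase, rose by 0.74 (SE 0.14, adjusted p = 0.0354 by limma). Its 1 probe set did not pass over all probe sets (adjusted p = 0.0506 by limma). Bach1, a repressor that heme releases from its targets, was -0.49, -0.37 and -0.44 against 0.57, 0.38 and 0.35, and fell by 0.87 (SE 0.13, adjusted p = 0.0218 by limma). Eif2ak1, the heme-regulated kinase that slows globin translation when heme is short, fell by 0.75 (SE 0.13, adjusted p = 0.0259 by limma), and its change was -0.32 on bright probe sets alone (adjusted p = 0.259). Hmox1, the inducible heme oxygenase, had a change of -0.39 (SE 0.38) with overlap. Leaving out any 1 array ended the calls of Hmox2, Bach1 and Eif2ak1, and no probe set of Eif2ak1 passed over all probe sets.

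Of 25 regulators of globin genes 3 were higher and 2 lower, beside 6.63% and 4.75% of all genes. At an unadjusted p under 0.05 in limma these were 7 and 7, beside 18.1% and 10.9%, and the median change was 0.06. Bcl11a, a repressor of embryonic and fetal globin genes, was 0.50, 0.63 and 0.79 against -0.79, -1.30 and -0.62, and rose by 1.54 (SE 0.23, adjusted p = 0.0195 by limma). Its call ended without ASXL1-MT replicate 2, ASXL1-MT replicate 3 or mock replicate 1. Nr2c1, an orphan receptor that represses embryonic globins, rose by 0.80 (SE 0.16, adjusted p = 0.0365 by limma), and Lmo2, a bridging factor of red cell complexes, rose by 0.72 (SE 0.14, adjusted p = 0.0360 by limma). Nfe2 fell by 0.75 (SE 0.13) and Klf3 by 0.65 (SE 0.13), and the probe set of smallest spread gave Klf3 a change of 0.26. The calls of Nr2c1, Lmo2, Nfe2 and Klf3 ended whichever array was left out, that of Lmo2 also after cyclic loess and that of Nr2c1 on bright probe sets alone. The 1 probe set of Lmo2 did not pass over all probe sets (adjusted p = 0.0517 by limma), nor did any of Nr2c1. Klf1, the activator of adult beta globin, was 1.71, 0.67 and 0.03 against -1.67, -0.78 and -0.03, a change of 1.63 (SE 0.60) that did not pass. Gata1 (0.17, SE 0.53), Sox6 (0.06, SE 0.70) and Myb (0.15, SE 0.18) overlapped between groups.

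Markers of the other cells the marrow could hold were tested in limma over all genes and are given by list, with counts at an unadjusted p under 0.05 in parentheses. Neutrophil markers were lower in 6 of 14 cases and higher in 0 (8 and 0), beside 4.75% of all genes called lower and 6.63% higher, namely Il1r2 (-4.17), Mmp9, Cxcr2, Csf3r, Mmp8 and Elane (-1.06). Megakaryocyte markers were lower in 6 of 12 and higher in 0 (8 and 0), from Thbs1 (-4.29) and Pf4 (-2.44) over Clec1b, Vwf and Itga2b to Gp1bb (-1.01, but -0.10 with its least variable probe set). Stem and progenitor markers were higher in 5 of 12 and lower in 1 (5 and 2). Flt3 (3.50), Hoxa9 (3.46), Mecom (2.63, and 6.35 on its least variable probe set), Egfl7 (2.47) and Cd34 (1.44) rose, while Meis1 fell by 1.95, a change that turned to 0.28 with the least variable probe set. Monocyte and macrophage markers were higher in 1 of 13, Cd163 (1.58), and lower in 1, Vcam1 (-4.33). B cell markers were higher in 1 of 7, Cd79b (0.96), and lower in 0 (1 and 0), and T and NK cell markers higher in 2 of 7, Cd8a (2.99) and Klrd1 (2.85), and lower in 0 (2 and 1). List means of neutrophil markers ranged from -0.54 to -0.38 in ASXL1-MT and from 0.36 to 0.56 in mock, and those of megakaryocyte markers from -1.37 to -0.55 and from 0.25 to 1.18. The part of these cells in the heme and globin values was not tested.

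Likeness of pattern was measured as the root mean square difference of gene values over the 6 arrays. The 3 nearest genes that were not members are named without a test. Values were not scaled, so the size of a change weighs in the difference. Nearest to Alas2 were Slc4a1 (0.77), G530011O06Rik (0.84) and Tnfsf11 (0.84), and Slc4a1 read 2.98, 1.07 and 0.53 against -1.28, -1.60 and -0.48. Nearest to Hbb-y were Pdcd1 (1.09), 1810073O08Rik (1.11) and Fam20a (1.13). The search left out the other members and the globin probe sets with several symbols, so it cannot show whether Hbb-y was like other globins. Nearest to Hbb-bh1 were Acad10 (0.15), Xk (0.20) and Slc38a6 (0.23), and to Hba-x Qrich2 (0.30), Six4 (0.30) and Tff3 (0.32).

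**Figure D5:**
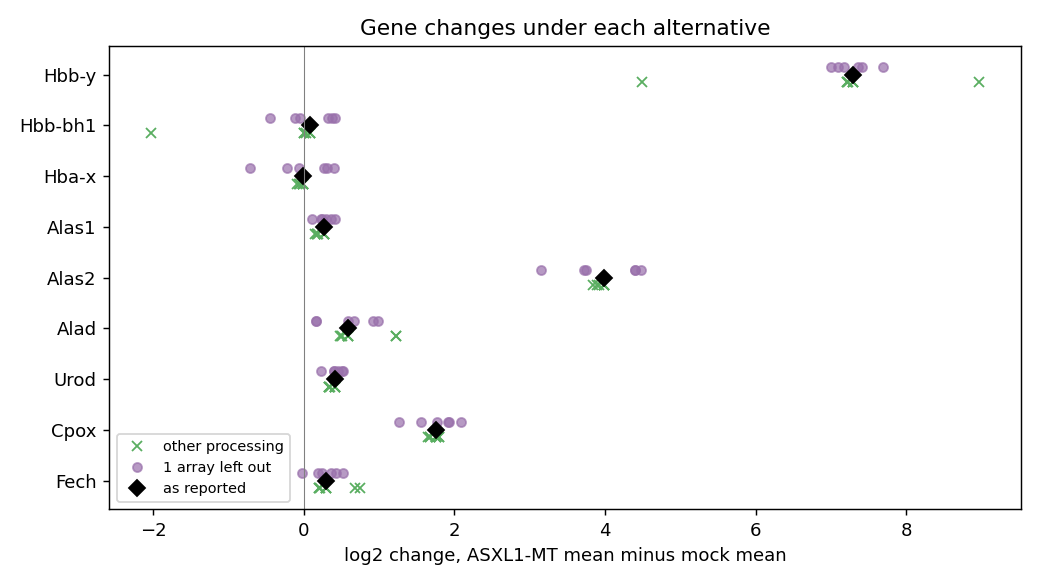
Change of each of the 9 genes on the log2 scale as reported (black), with 1 of the 6 arrays left out (purple) and with other processing (green crosses). Hbb-y stays between 4.49 and 8.97 and Alas2 between 3.15 and 4.47, while Hbb-bh1, Hba-x and Fech reach both sides of 0.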

How the data were processed

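Signals were made with MAS 5 by the authors, per the submitters' processing notes. The deposited log2 values carry no statement of log base, centring or floor, and row medians of 0 showed the centring. The platform annotation gave 1 symbol to 34945 of 45037 probe sets, several to 932 and none here to 9160. Of the first kind 34741 matched the RefSeq table of GRCm38.p6 by gene ID, used for names. Changes came from limma 3.58.1 in R 4.3.3 (lmFit, eBayes, group as the single term, no trend, Benjamini-Hochberg over all probe sets or all genes, threshold 0.05), and a gene was the mean of its probe sets. The fit was tested on simulated data, and on simulated single-precision values 0% of the true levels passed their bound. Members and the 13 gene lists were chosen with earlier results of these data known. Named genes were all members, list genes past the threshold, every gene of the heme enzyme and adult globin lists and the 3 nearest by pattern to Alas2 and each embryonic globin. Slc4a1, Rhag, Hemgn, Epor, Sptb, Pklr, Car1, Ank1, Slc25a37, Slc25a38, Abcb10, Tfrc, Hmox1, Klf1, Gata1, Sox6 and Myb were named outside this rule, after their values were seen. A planned comparison of globin protein sequences was not run. Bright probe sets additionally needed no finer step that put them under a signal of 256. A total of 6 arrays limits the precision. Alternatives were quantile normalization, cyclic loess, equal array medians, an intensity trend, robust variance, bright probe sets alone, the probe set of smallest spread, a replicate block and leaving out each array.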

Additional observations from a re-analysis of the deposited data

Results flagged for a closer look

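Probe sets with several symbols were left out of the gene values. Of these, 4 carry symbols of adult globin genes alone, and each was brighter on all ASXL1-MT arrays than on any mock array. The probe set 1417184_s_at, with 4 adult beta globin symbols, read 2.29, 1.53 and 1.70 on the ASXL1-MT arrays against -3.97, -2.53 and -1.53, a change of 4.52 (SE 0.66), and it passed the threshold (adjusted p = 0.0261 by limma). The other 3 carry both adult alpha globin symbols. Their changes were 5.60 (SE 1.64) for 1417714_x_at, 3.75 (SE 0.76) for 1428361_x_at and 4.23 (SE 0.89) for 1452757_s_at, of which 1428361_x_at passed. All 4 were bright, mock replicate 1 was the lowest array on each, down to -6.81 on 1417714_x_at, and ASXL1-MT replicate 1 was the highest on each. Which of the genes they carry gave the signal cannot be told apart, and red cell RNA in the depleted marrow was not tested.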

How the results depend on the processing

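Of the 9 gene changes, those of Hbb-y, Alas1, Alas2, Alad, Urod and Cpox kept their sign under every alternative run. With an array left out the change ran from 7 to 7.70 for Hbb-y, 3.15 to 4.47 for Alas2, 1.27 to 2.08 for Cpox, 0.16 to 0.99 for Alad, 0.23 to 0.52 for Urod, 0.10 to 0.42 for Alas1, -0.02 to 0.53 for Fech, -0.46 to 0.41 for Hbb-bh1 and -0.72 to 0.40 for Hba-x. Represented by its least variable probe set, Hbb-y was 4.49, Hbb-bh1 -2.03 and Fech 0.74, and on bright probe sets alone Hbb-y was 8.97, in each case because other probe sets made up the gene. The same choice turned Klf3 to 0.26 and Meis1 to 0.28. Calls over the whole table numbered 3646 probe sets and 2072 genes, 7167 and 4414 on bright probe sets alone, and 3898 genes with the probe set of smallest spread. With an array left out they ran from 66 to 1142 probe sets and from 192 to 1033 genes. The replicate block gave 0 probe sets, 0 genes and 0 calls in the lists in limma, with 9874 probe sets and 4568 genes at an unadjusted p under 0.05. Same-numbered replicates had correlations of deviations of -0.00882, -0.0116 and -0.00903. The labels do not say whether they were paired, and correlations over all probe sets cannot settle it. Why the block removed the calls was not tested. Calls in the pathway lists were 12 as reported, 37 on bright probe sets alone, 24 by least variable probe set and 0 to 6 with an array left out. Those in the marker lists were 26, and 4 to 19 with an array left out. Of all gene calls 58.3% were higher as deposited, 47.6% after quantile normalization, 46.6% after cyclic loess and 49.3% with equal medians. No background level was measured. Upper bounds of 16 or less cover every mock array for Hbb-y and 2 of 3 for Alas2, and bounds of 51.6 or less every array for Hba-x.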
